A study of Mus musculus with 12 samples.

Results

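Testes of newborn mice at postnatal day 2 (P2) were compared between Pramef12 Null (Pramef12-/-) and Pramef12 Het (Pramef12+/-) animals, with 3 RNA samples per genotype, so 6 of the 12 samples of the series are described. All mice were of a mixed B6D2F1 background, the Null carrying on both alleles, and the Het on 1, a short CRISPR/Cas9 deletion just after the start codon of Pramef12. The mutation is in the germ line and therefore present in every cell, and wild-type testes were not part of the comparison. The other 6 samples, of the same genotypes at postnatal day 7 (P7), came from other animals and serve below as an independent look at the genes named at P2. The comparison asks which transcripts already differ at P2, when the first wave of spermatogenesis is about to start.

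PRAMEF12 belongs to the PRAME family, a group of leucine-rich repeat proteins with many copies in the mouse that are mostly expressed in germ cells. Around birth the germ cells of the testis are gonocytes, which resume division, move to the edge of the tubule and become spermatogonia. Some spermatogonia remain as stem cells, and others enter differentiation, a step driven by retinoic acid and marked by genes such as Stra8 and Kit. Sertoli cells, peritubular myoid cells, Leydig cells, macrophages and endothelium make up the rest of the organ, and in whole-testis RNA fewer cells of a type and less RNA per cell cannot be told apart.

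The 6 libraries held 14438781 to 21043245 counts on genes. Levels below are CPM (the count scaled to a common library size) on library sizes normalized by TMM within P2, and fold changes are log2, Null against Het, from the quasi-likelihood test of edgeR with its standard error (SE). A gene was called at a Benjamini-Hochberg adjusted p below 0.1. The study's methods describe a sample as 1 animal or a single testis of 1 animal, and the labels do not say which holds here, so the p-values measure the spread between these samples. Defining genes of germ cells (Ddx4, Dazl), Sertoli cells (Amh, Sox9), Leydig cells (Cyp17a1), myoid cells (Acta2) and endothelium (Cdh5) were detected in all 6 samples, whereas Lcn5 of the epididymis was at 0 counts, Crisp1 at no more than 1 and Adipoq of fat at no more than 2 in any sample. Mitochondrial genes took 0.991%, 0.914% and 1.091% of counts in the Het samples and 1.297%, 1.135% and 1.254% in the Null samples, without overlap (exact permutation test, two-sided p = 0.1, the smallest that 3 against 3 allow). Null replicate 1 stood apart in red blood cell transcripts, with Hba-a1 at 29.1 CPM against 7.28 to 11.7 CPM in the other 5 samples. The part of either measure in the results below was not tested.

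Pramef12 was at 10.7, 15.4 and 19.4 CPM in Het and at 5.55, 2.14 and 3.94 CPM in Null. The groups did not overlap, and the Null mean of 3.88 ± 1.7 CPM (SD, n = 3) was above 0. The fitted difference was -1.99 ± 0.31 (SE), with an adjusted p of 0.125 by edgeR and 5.72e-09 by DESeq2. The deletion removes few of the bases that reads can cover, so the remaining counts do not speak to the protein.

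Across the 16531 genes tested at P2, 6 were lower in Null (0.0363%) and 1 was higher (0.00605%). At an unadjusted p below 0.05, 630 genes were lower (3.81%) and 369 higher (2.23%). All 3 Null samples lay below all 3 Het samples for 1094 genes (6.62%) and above them for 865 (5.23%). DESeq2, the tool the study used, called 62 genes lower (0.319%) and 14 higher (0.072%) of the 19437 it gave an adjusted p. The described genes are the 20 lower and 10 higher genes of smallest p among those with at least 10 counts on average, leaving out 33 genes that the text of the study names. They were chosen by their p at P2, so their difference and the gap between groups at P2 describe the choice and support nothing further. The last lower gene inside the choice, Ccdc88c, was at -0.40 (adjusted p = 0.232, edgeR) and the first outside, Gm16270, at -0.56 (adjusted p = 0.232). Among the higher genes Grm4 was the last inside (0.78, adjusted p = 0.4, edgeR) and Arglu1 the first outside (0.28, adjusted p = 0.401).

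Promoters were read for 12 of the 19 lower genes described here and for 6 of the 10 higher genes. They were taken from RefSeq (GRCm38.p6), as 250 bases before to 50 after a gene's start. Promoters of the other genes, Gfra3 and Pmaip1 among them, were not read, so the counts below do not cover them. The GC box GGGCGG, a sequence common in promoters with many CpG dinucleotides, was looked for on either strand. Of the promoters read, 12 of 12 lower and 3 of 6 higher genes held it, against 66.9% of the 11641 tested genes whose promoter was read. The median number of CpG was 25 in the lower genes, 3.5 in the higher genes and 20 in the tested genes, each over the promoters read. The TATA box TATAAA was in 0 of 12 lower genes and 1 of 6 higher genes (8.87% of tested genes), the CCAAT box in 3 and 4 (42.3%), and the E-box CACGTG in 1 and 1 (11.4%). Promoters of the called genes Gldc, Crabp1 and Padi3, and of Plcg2, which also holds the E-box, are printed 5′ to 3′ on the strand of the gene to show how far they differ in GC boxes, which are in capitals.
Gldc (GRCm38.p6, chr19:30175392-30175691, minus strand): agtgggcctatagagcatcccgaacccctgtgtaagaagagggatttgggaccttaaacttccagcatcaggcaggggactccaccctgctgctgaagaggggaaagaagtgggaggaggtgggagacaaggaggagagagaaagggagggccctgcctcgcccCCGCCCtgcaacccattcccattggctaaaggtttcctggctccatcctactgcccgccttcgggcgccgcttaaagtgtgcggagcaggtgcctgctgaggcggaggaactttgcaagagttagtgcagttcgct
Crabp1 (GRCm38.p6, chr9:54764498-54764797, plus strand): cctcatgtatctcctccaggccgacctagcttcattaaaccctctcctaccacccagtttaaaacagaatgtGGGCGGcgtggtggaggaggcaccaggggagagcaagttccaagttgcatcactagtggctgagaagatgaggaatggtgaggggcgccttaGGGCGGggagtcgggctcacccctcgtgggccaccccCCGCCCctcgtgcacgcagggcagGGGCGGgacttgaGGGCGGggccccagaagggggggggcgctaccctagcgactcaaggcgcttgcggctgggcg
Plcg2 (GRCm38.p6, chr8:117498025-117498324, plus strand): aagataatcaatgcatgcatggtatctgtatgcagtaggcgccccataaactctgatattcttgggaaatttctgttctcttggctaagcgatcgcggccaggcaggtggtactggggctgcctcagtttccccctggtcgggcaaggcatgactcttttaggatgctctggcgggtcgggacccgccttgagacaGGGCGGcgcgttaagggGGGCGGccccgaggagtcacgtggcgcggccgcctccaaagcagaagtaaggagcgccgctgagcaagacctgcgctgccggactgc
Padi3 (GRCm38.p6, chr4:140810599-140810898, minus strand): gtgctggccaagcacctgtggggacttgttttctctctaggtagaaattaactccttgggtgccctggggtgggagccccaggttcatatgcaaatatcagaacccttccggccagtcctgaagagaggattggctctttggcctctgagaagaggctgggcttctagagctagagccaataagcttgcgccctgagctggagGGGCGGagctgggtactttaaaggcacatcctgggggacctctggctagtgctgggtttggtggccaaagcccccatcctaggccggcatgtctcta
The Crabp1 promoter held 5 GC boxes and 17 CpG, that of Plcg2 2 and 21, that of Gldc 1 and 10, and that of Padi3 1 and 4.

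The 20 lower genes had a median difference of -0.89, and the 19 described here ran from -1.73 to -0.40. Called were 3 of them by edgeR, namely Sez6, Gldc and Crabp1, and 18 by DESeq2. The adjusted p of the other 17 ran from 0.112 to 0.232 by edgeR. The genes do not belong to a single pathway: they code for surface receptors and a surface protease, signalling enzymes, enzymes of O-glycosylation, metabolic enzymes and proteins of the cell cortex. Of the 20, 2 (Crabp1 and Ccdc88c) were among the single-cell markers of spermatogonia used further below, as were 186 of the 16531 genes tested. Upp1 was a marker of a spermatogonial state (SPG2) and in the list of stem and undifferentiated spermatogonia genes, both also used below.

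**Figure D1:**
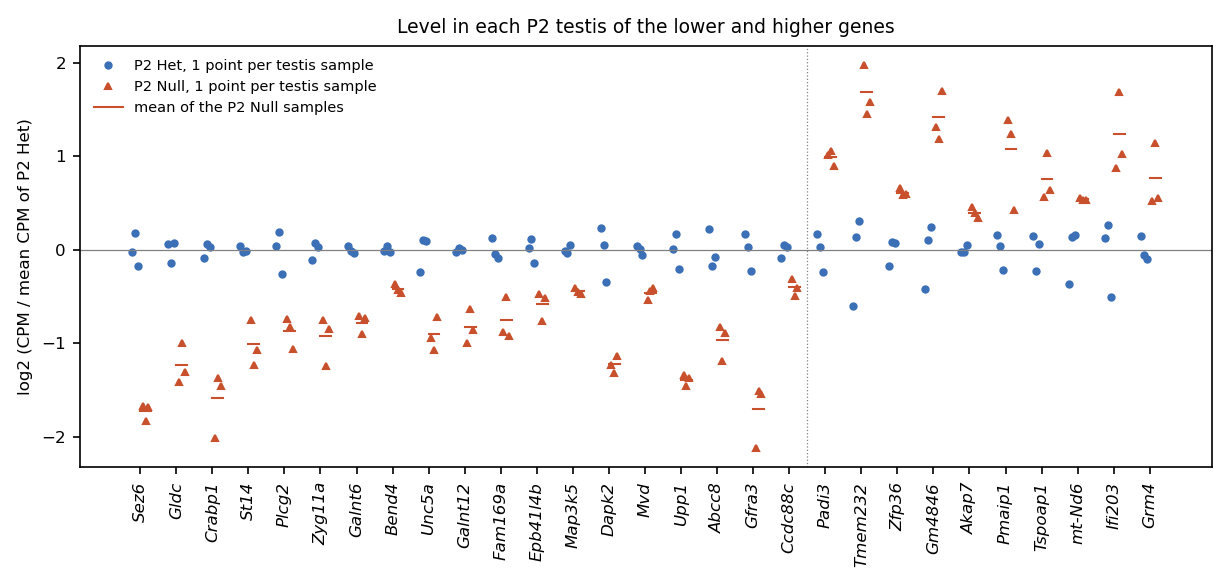
Log2 ratio of the CPM of each P2 testis sample to the mean of the 3 Het samples, for 19 of the 20 lower genes (left of the dotted line) and the 10 higher genes (right), each ordered by p. Circles are Het samples, triangles Null samples and short lines the Null mean. For all 29 genes shown the 3 Null samples lie outside the range of the 3 Het samples, as their choice by p makes likely.

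Among the enzymes of small molecules, Gldc, the glycine-cleaving subunit of the glycine cleavage system, was at 17.6, 15.3 and 17.8 CPM in Het and 6.33, 8.48 and 6.81 CPM in Null. It fell by 1.22 on the log2 scale (SE 0.14, adjusted p = 0.0366, edgeR) and was called in 1 of the 6 fits that left out 1 library. Upp1, which splits uridine into uracil and ribose phosphate, was at 1.72, 1.91 and 1.48 CPM against 0.672, 0.619 and 0.657 CPM. All samples of Upp1 were low, and the difference of -1.38 had an adjusted p of 0.227 by edgeR and 0.412 by DESeq2. Mvd, the decarboxylase of the mevalonate pathway to cholesterol, was at 24.7, 24.2 and 23.0 CPM against 16.5, 17.7 and 18.0 CPM, a difference of -0.46 (adjusted p = 0.221).

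Crabp1, a cytosolic protein that binds retinoic acid, was at 5.09, 5.66 and 5.53 CPM in Het and 1.34, 2.1 and 1.97 CPM in Null. It fell by 1.58 (SE 0.20, adjusted p = 0.0744, edgeR), although no fit with 1 library left out called it. Of the 22 tested genes of retinoid metabolism and signalling, Crabp1 was the only one called, and the median of the list was -0.02. Its next member by p, Cyp26a1, which degrades retinoic acid, was at -1.15 (adjusted p = 0.678).

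Surface proteins were led by Sez6, a transmembrane protein best known from neurons, at 25.6, 29.4 and 23.0 CPM in Het and 8.18, 7.29 and 8.07 CPM in Null. Sez6 fell by 1.73 (SE 0.12, adjusted p = 0.00154) and stayed called in all 6 fits that left out 1 library. St14, the membrane serine protease matriptase, was at 10.6, 10.1 and 10.2 CPM against 6.11, 4.38 and 4.90 CPM, a difference of -1.01 ± 0.15 (SE, adjusted p = 0.112). The Het samples of St14 differed by less than 1 CPM, and every Null sample was below them. Unc5a, a receptor of the guidance cue netrin, was at 9.55, 12.1 and 12 CPM against 5.83, 5.33 and 6.81 CPM (-0.91, adjusted p = 0.14). Gfra3, the co-receptor of artemin and a relative of the stem cell receptor Gfra1, was scarce, at 1.37, 1.25 and 1.04 CPM against 0.280, 0.429 and 0.418 CPM (-1.67, adjusted p = 0.231). Abcc8, the regulatory subunit of an ATP-sensitive potassium channel, was at 5.89 ± 0.876 CPM against 3.01 ± 0.39 CPM (SD, n = 3).

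Among signalling enzymes, Plcg2, a phospholipase that releases the messengers inositol trisphosphate and diacylglycerol, was at 36.5, 40.5 and 29.8 CPM in Het and 21.3, 20.1 and 17.0 CPM in Null. Its difference was -0.87 ± 0.13 (SE, adjusted p = 0.112), and of the 6 edgeR fits that left out 1 library, that without Het replicate 3 called it (adjusted p = 0.0833). Map3k5, the stress-activated kinase ASK1, was at 24.8, 24.4 and 26.0 CPM against 18.9, 18.3 and 18.0 CPM, a smaller but even difference of -0.45 ± 0.08 (adjusted p = 0.195). Dapk2, a calcium-dependent kinase linked to cell death and autophagy, was at 4.33, 3.82 and 2.90 CPM against 1.57, 1.48 and 1.67 CPM (-1.22, adjusted p = 0.195). Ccdc88c, a Dishevelled-binding protein of Wnt signalling also called Daple, differed least of this group at -0.40.

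A pair of the 20 genes code for enzymes that start mucin-type O-glycosylation by adding N-acetylgalactosamine to serine or threonine. Galnt6 was at 11.8, 11.3 and 11.2 CPM in Het and 7.00, 6.10 and 6.87 CPM in Null (-0.78, adjusted p = 0.112). Galnt12 was at 9.49, 9.75 and 9.63 CPM against 4.82, 6.19 and 5.32 CPM (-0.82, adjusted p = 0.151). In both the Het samples lay close together and the Null samples well below them. Of the remaining genes, Zyg11a, a substrate receptor of a cullin-2 ubiquitin ligase, was at 14.8, 16.8 and 16.3 CPM against 9.52, 6.76 and 8.90 CPM (-0.93, adjusted p = 0.112). Bend4, a BEN domain protein, was at 53.3, 55.3 and 52.8 CPM against 41.7, 40.0 and 39.1 CPM (-0.42, adjusted p = 0.125). Fam169a (-0.75) and the FERM domain gene Epb41l4b (-0.58) had adjusted p of 0.18 and 0.195.

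The 10 higher genes spanned 0.39 to 1.66 with a median of 0.89. Called was 1 of them by edgeR and 7 by DESeq2, and the adjusted p of the other 9 ran from 0.18 to 0.4. Padi3, which converts arginine to citrulline in proteins, was at 7.70, 6.98 and 5.80 CPM in Het and 13.8, 14.2 and 12.7 CPM in Null, and rose by 1.00 (SE 0.13, adjusted p = 0.0781). It was not called in any of the 6 fits that left out 1 library. Padi3 lies on chromosome 4 (140785365 to 140810648), as does the edited Pramef12 (144391674 to 144408464). Of the described lower genes, Zyg11a (108181934 to 108217922), Galnt12 (47091909 to 47123070) and Epb41l4b (56991972 to 57143437) lie on it too. Among genes named below, so do Lin28a (134003330 to 134018841), Pramel1 (143394428 to 143400160) and others. The part of linked sequence in the differences of these genes was not tested. Of the 5 peptidylarginine deiminases 3 were tested, and Padi2 and Padi4 were at -0.45 and 0.02 (adjusted p = 0.892 and 0.996). Het replicate 3 held 112 CPM of Padi2 against 54.1 and 46 CPM in the other Het samples, and without it the difference was 0.05.

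Pmaip1, the BH3-only cell death protein Noxa and a target of p53, was at 11.7, 10.8 and 9.03 CPM in Het and 27.6, 24.8 and 14.1 CPM in Null. Its difference was 1.09 ± 0.23 (SE, adjusted p = 0.255 by edgeR, 0.000331 by DESeq2), and Null replicate 3 lay well below the other Null samples. Without that library Pmaip1 was called, at 1.33 (adjusted p = 0.0396, edgeR). The 22 tested p53 targets and apoptosis genes had a median of -0.04, with 0 lower and 1 higher, Pmaip1, at an unadjusted p below 0.05. Cdkn1a, the p53 target that stops the cell cycle, was at -0.34 (adjusted p = 0.884), and at -0.56 without Null replicate 1. Zfp36, or tristetraprolin, which binds AU-rich elements and speeds the decay of mRNA, was at 9.97, 11.9 and 11.8 CPM against 17.7, 16.8 and 17.0 CPM (0.61 ± 0.11 SE, adjusted p = 0.18). Zfp36 is also an immediate early gene, and the 22 genes of that list had a median of 0.09. At an unadjusted p below 0.05, 4 were higher (18.2%, Zfp36, Egr1, Atf3 and Fos) and 1 was lower (4.55%, Klf4). The shares of all genes were 2.23% and 3.81%. Zfp36, itself chosen by its p, was the only member called by DESeq2 (adjusted p = 0.0178), and none was called by edgeR.

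Tmem232, a transmembrane protein, had the largest difference of the 10, at 0.550, 0.922 and 1.04 CPM in Het and 3.31, 2.29 and 2.51 CPM in Null (1.66, adjusted p = 0.18). Grm4, a metabotropic glutamate receptor, was at 7.15, 6.19 and 6.02 CPM against 9.24, 14.3 and 9.50 CPM (0.78, adjusted p = 0.4). Tmem232 was a scarce transcript, and Null replicate 2 was the highest sample of Grm4. Gm4846 (1.39), the kinase anchor Akap7 (0.39), Tspoap1 (0.76) and the interferon-inducible Ifi203 (1.26) had adjusted p between 0.233 and 0.394. The mitochondrial gene mt-Nd6, a subunit of respiratory complex I, was at 100, 142 and 144 CPM against 189, 186 and 186 CPM (0.54, adjusted p = 0.312). Like the mitochondrial share of counts given above it was higher in every Null than in every Het sample, although Het replicate 2, with the lowest share, was not the lowest in mt-Nd6.

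Reads were counted without regard to strand, and exons of Galnt6, Bend4, Unc5a, Fam169a, Ccdc88c, Zfp36, Akap7 and mt-Nd6 overlap exons of a gene on the other strand. Of the 50-base windows in Ifi203 transcripts, 12.2% also occur in other genes such as Mndal, so its counts are uncertain. No other of 30 genes, Pramef12 included, shared more than 1.76% of its windows. Among genes named elsewhere in the text, Pramel3 shared 81.8%, Hba-a1 72.3%, Hbb-bs 53.2% and Tdh 10.2%, so their counts are less certain too.

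Lists of genes were compared by their counts and medians, beside those of all genes tested. Of all genes, 3.81% were lower and 2.23% higher at an unadjusted p below 0.05 (edgeR). Of 199 single-cell markers of spermatogonia, taken from the study's P7 cells, 186 were tested at P2 and had a median of -0.15, against 0.00 over all genes. Of these, 161 (86.6%) had a difference below 0, compared with 48.9% of all genes, and 54 (29%) were lower and 2 higher at an unadjusted p below 0.05. Called by edgeR were 3, all lower, and by DESeq2 15, all lower. The difference was small for most, since 137 of the 186 lay between -0.5 and 0, 24 below -0.5 and 5 below -1, with Stra8 lowest at -2.14. The summed level of the 195 markers found in the files was 10420, 10600 and 10250 CPM in Het and 9823, 8596 and 9622 CPM in Null, without overlap, and Null replicate 2 was lowest. Without that library the median was -0.09. Without the markers that the text of the study names, 174 remained with a median of -0.14.

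**Figure D2:**
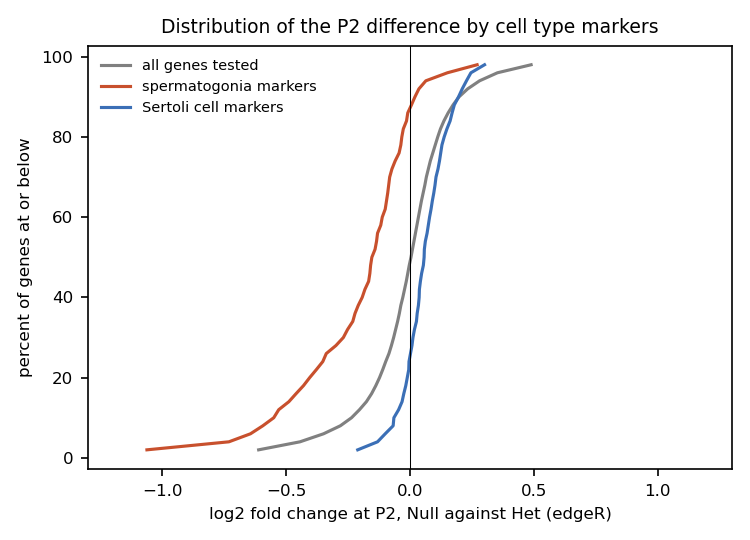
Percent of genes at or below each log2 fold change at P2 (2nd to 98th percentile), for all 16531 genes tested, the 186 spermatogonia markers and the 213 Sertoli cell markers. The spermatogonia curve lies left of all genes over its whole length, with a median of -0.15, and the Sertoli curve crosses 50% at 0.06.

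Sertoli cell markers lay on the other side of 0, with a median of 0.06 over 213 genes and 53 (24.9%) below 0. At an unadjusted p below 0.05, 1 was lower (0.469%) and 20 were higher (9.39%), against 3.81% and 2.23% of all genes. None of these markers was called by edgeR or DESeq2. CPM are shares of a library, and with library sizes set on the Sertoli markers themselves their median was -0.02 and that of the spermatogonia markers -0.24. Medians of the single-cell markers of Leydig cells (0.04), myoid cells (0.05 and 0.04), macrophages (0.03) and cycling cells (0.03) lay near 0 and were between -0.05 and -0.04 with that scaling, which moved the median of all genes to -0.08. Without Null replicate 1 the Leydig median was -0.04. Kitl, the Sertoli ligand of the KIT receptor, was at 252, 279 and 313 CPM in Het and 340, 332 and 351 CPM in Null (0.28, adjusted p = 0.529). Gdnf, the Sertoli growth factor for stem cells, was at 0.11 (adjusted p = 0.922) and was picked after its value was seen, as were Egr1, Atf3, Fos, Klf4 and Cdkn1a above.

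**Figure D3:**
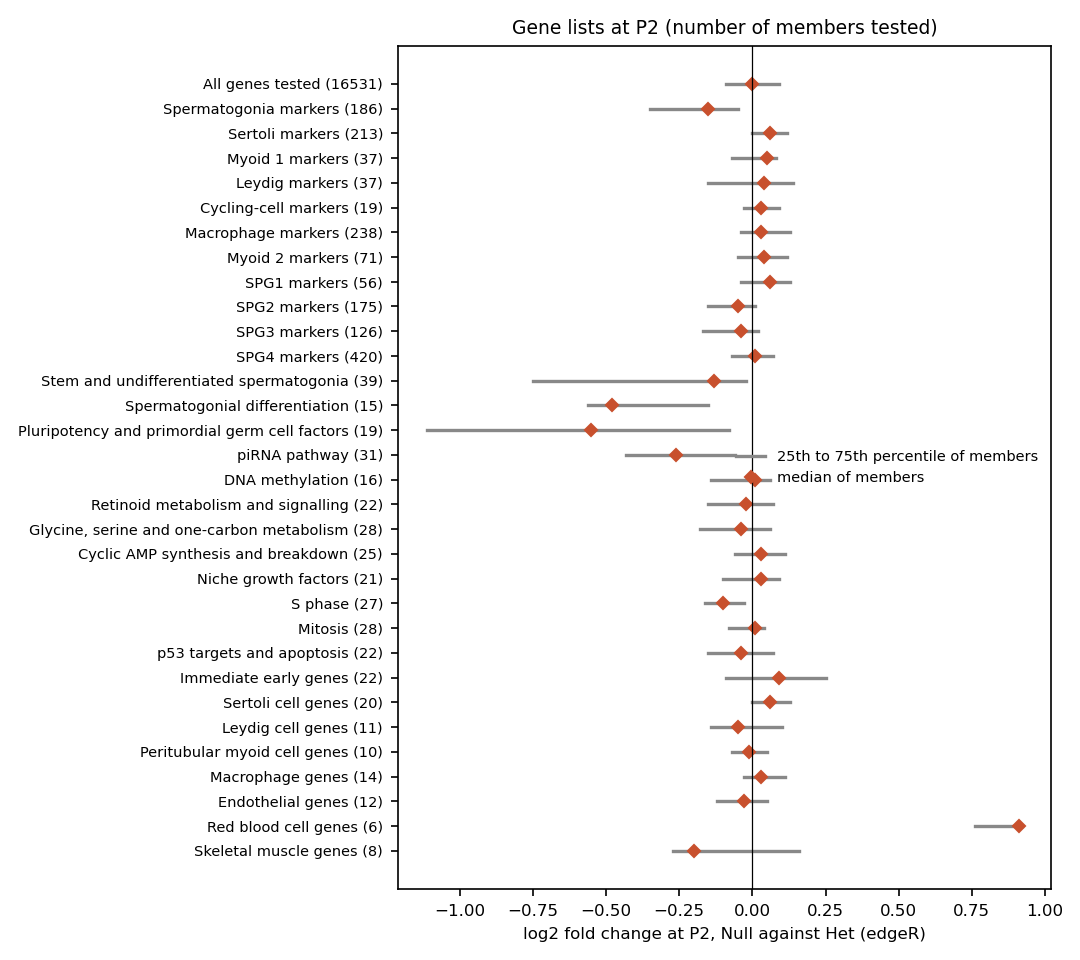
Median (diamond) and 25th to 75th percentile (bar) of the log2 fold change at P2 for each gene list with at least 6 tested members, the number tested in parentheses. The pluripotency list (-0.55), spermatogonial differentiation (-0.48) and the piRNA pathway (-0.26) lie furthest below 0, and red blood cell genes (0.91) furthest above, a median that is 0.26 without Null replicate 1.

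The textbook lists of germ cell functions share members with each other. Their counts at an unadjusted p below 0.05 stand beside 3.81% lower and 2.23% higher of all genes. Factors of pluripotency and primordial germ cells had a median of -0.55 over 19 tested of 28, with 15 below 0 and 10 lower and 0 higher at an unadjusted p below 0.05. None was called by edgeR, and 4 were by DESeq2. Sall1, a zinc finger factor, was at 11.0, 14.6 and 12 CPM in Het and 5.32, 2.14 and 3.88 CPM in Null (-1.74, adjusted p = 0.125, edgeR), and was called without Null replicate 1 (-2.07, adjusted p = 0.0929). Utf1, a chromatin factor of stem cells, was at 5.09, 4.61 and 3.5 CPM against 1.01, 1.86 and 1.25 CPM (-1.65, adjusted p = 0.128). Pou5f1, or Oct4, was at 7.49, 7.71 and 6.78 CPM against 4.54, 2.33 and 3.17 CPM (-1.14, adjusted p = 0.239).

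Genes of spermatogonial differentiation had a median of -0.48 over 15 tested of 16, with 14 below 0 and 8 lower and 0 higher at an unadjusted p below 0.05, none called by edgeR and 2 by DESeq2. Stra8, the retinoic acid target that prepares germ cells for meiosis, was at 4.88, 7.57 and 8.53 CPM in Het and 1.96, 0.905 and 1.97 CPM in Null (-2.14 ± 0.31 SE, adjusted p = 0.112). Dnmt3b, a de novo DNA methyltransferase, was at 30.0, 32.0 and 30.6 CPM against 24.5, 22.2 and 20.0 CPM (-0.47, adjusted p = 0.239). Rec8, a meiotic cohesin subunit, was at 3.99, 4.15 and 4.49 CPM against 2.58, 2.19 and 2.27 CPM (-0.84, adjusted p = 0.255). Without Null replicate 2 the median of the list was -0.30 and that of the pluripotency list -0.38.

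The piRNA pathway, which silences transposons in germ cells through small RNAs, had a median of -0.26 over 31 genes, 27 of them below 0, with 10 lower and 1 higher at an unadjusted p below 0.05. The median was -0.15 without Null replicate 2. Piwil2, a PIWI protein that carries piRNAs, was at 116, 117 and 106 CPM in Het and 78.0, 69.4 and 67.5 CPM in Null, and fell by 0.65 (SE 0.07, adjusted p = 0.0366), a call made in 2 of the 6 fits without 1 library. Tdrd1, a Tudor protein that binds PIWI proteins, was at -0.58 (adjusted p = 0.233) and the germ cell helicase Ddx4 at -0.61 (adjusted p = 0.312). Tdrd9, a helicase of the same pathway, ran the other way, at 26.9, 17.8 and 29.8 CPM against 32.2, 35.8 and 32.7 CPM (0.43, adjusted p = 0.751), and is named here after its value was seen.

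Stem and undifferentiated spermatogonia genes were uneven. The median over 39 tested of 41 was -0.13, with 32 below 0 and 18 (46.2%) lower and 1 higher at an unadjusted p below 0.05. Zbtb16, the PLZF factor of undifferentiated spermatogonia, fell by 1.07 (SE 0.15, adjusted p = 0.0958), from 54.5 ± 1.88 CPM in Het to 26 ± 6.08 CPM in Null (SD, n = 3), with Null replicate 2 lowest and the call made in 2 of the 6 fits without 1 library. Lin28a, an RNA-binding protein that blocks let-7 maturation, was at 21.2, 29.3 and 29.4 CPM against 13.4, 6.29 and 11.8 CPM (-1.35, adjusted p = 0.195). The 1 higher member was Id4, at 10.7, 8.89 and 11.3 CPM in Het and 15.7, 12.1 and 14.4 CPM in Null (0.45, adjusted p = 0.621, edgeR). Etv5 (-0.01), Bcl6b (0.03) and Lhx1 (-0.04) lay near 0. Among the 18 lower members were also Gfra1 (-0.69), Ret (-0.45), Etv4 (-0.51) and Eomes (-1.21). Their adjusted p by edgeR were 0.459, 0.581, 0.388 and 0.255. These members are named after their values were seen. The median of this list moved to between -0.20 and -0.30 when any 1 of the Null samples or Het replicate 1 was left out.

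Split by the 4 spermatogonial states of the single-cell data (SPG1, the least mature, to SPG4), markers of a state had medians of 0.06, -0.05, -0.04 and 0.01. Of the 175 tested SPG2 markers 122 were below 0, and 20 (11.4%) were lower and 4 higher at an unadjusted p below 0.05. Of the 126 SPG3 markers 19 (15.1%) were lower and 0 higher, with 2 called lower by edgeR and 6 by DESeq2. The SPG1 markers had 5 lower and 5 higher of 56 (8.93% each). The SPG4 markers had 12 lower (2.86%) and 13 higher (3.1%) of 420, near the shares of all genes (3.81% and 2.23%). Of the state markers that also marked spermatogonia among all testis cells, SPG2 had a median of -0.18 over 14 genes, SPG3 -0.10 over 27 and SPG4 -0.21 over 27, with 12, 20 and 24 below 0. SPG1 had 2 such genes, at a median of -0.45.

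Other functional lists had medians of -0.10 to 0.03, apart from the PRAME family. Their counts at an unadjusted p below 0.05 likewise stand beside 3.81% lower and 2.23% higher of all genes. S phase genes had a median of -0.10 (-0.05 without Null replicate 2), with 21 of 27 below 0 and 4 lower and 0 higher at an unadjusted p below 0.05, and the replication helicase subunit Mcm3 was at 268, 265 and 259 CPM in Het and 232, 235 and 240 CPM in Null (-0.16, adjusted p = 0.611). Mitosis genes had a median of 0.01 over 28. In glycine, serine and one-carbon metabolism the median was -0.04 over 28, with 6 lower and 1 higher at an unadjusted p below 0.05 and Gldc the only member called. Tdh, which breaks down threonine, was at -1.97 (adjusted p = 0.255) and Mat2a, which makes S-adenosylmethionine, at 0.29 (adjusted p = 0.466). The cyclic AMP list had a median of 0.03 over 25, and Adcy10, the soluble adenylyl cyclase, was its only call (-1.86, adjusted p = 0.0379, called in 0 of the 6 fits without 1 library). DNA methylation genes had a median of 0.01 over 16, with 3 lower and 0 higher at an unadjusted p below 0.05 and 1 called lower by DESeq2. Niche growth factors had a median of 0.03 over 21, with 1 lower and 1 higher. Of 17 PRAME family genes 4 were tested, with a median of -0.29 that ran from -0.59 without Null replicate 1 to -0.17 without Null replicate 3. Besides Pramef12 they were Pramel3 (-0.53), Pramel1 (-0.05) and Pramef8 (-0.03), with adjusted p of 0.905, 0.979 and 0.982. Pramel3 was at -0.97 without Null replicate 1 and at -0.27 without Null replicate 3.

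Textbook genes of the other cell types had medians of 0.06 for Sertoli cells (20 genes), -0.05 for Leydig cells (11), -0.01 for peritubular myoid cells (10), 0.03 for macrophages (14) and -0.03 for endothelium (12), with no gene called. Skeletal muscle was at -0.20 over 8 tested genes, a value that was 0.08 without Het replicate 1. Of the fat list 2 genes and of the epididymis list 4 genes passed the filter on low counts.

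At P7, where the samples are other animals, 2221 of 16703 genes were lower in Null (13.3%) and 1247 higher (7.47%). With the replicate number as a block these were 2801 and 2142. Cell type markers moved at P7 too: spermatogonia markers had a median of -0.47, with 138 of 185 called lower and 0 higher, and Sertoli markers one of 0.25, with 0 of 215 called lower and 107 higher. Their part in the P7 values below was not tested. On library sizes set on Sertoli markers, 7578 genes were lower and 118 higher, with the median of all genes moved from 0.01 to -0.26. Of the 20 genes lower at P2, 19 were called lower at P7, and for 18 all Null samples lay below all Het samples, as for 19.9% of all genes tested at P7 (15.2% lay above). The P7 difference was larger than that at P2 in 14 of the 20, with a median of -1.21. Crabp1 was at 38.7, 44.4 and 34.5 CPM in P7 Het and 9.04, 4.02 and 5.09 CPM in P7 Null (-2.68, adjusted p = 0.00188). Galnt12 was at 22.2, 28.9 and 21.6 CPM against 7.74, 6.14 and 6.46 CPM (-1.83, adjusted p = 0.00146).

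Of the 10 genes higher at P2, 4 were called higher at P7, namely Zfp36, Gm4846, Akap7 and Pmaip1, and 2 were called lower. Pmaip1 was at 5.46, 4.17 and 5.03 CPM in P7 Het and 11.0, 13.3 and 6.83 CPM in P7 Null (1.08, adjusted p = 0.0238). Padi3 and Grm4 were the 2 called lower, at -0.69 (adjusted p = 0.0222) and -0.79 (adjusted p = 0.04). With library sizes set on Sertoli markers, 2 of the 10 were called higher at P7.

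**Figure D4:**
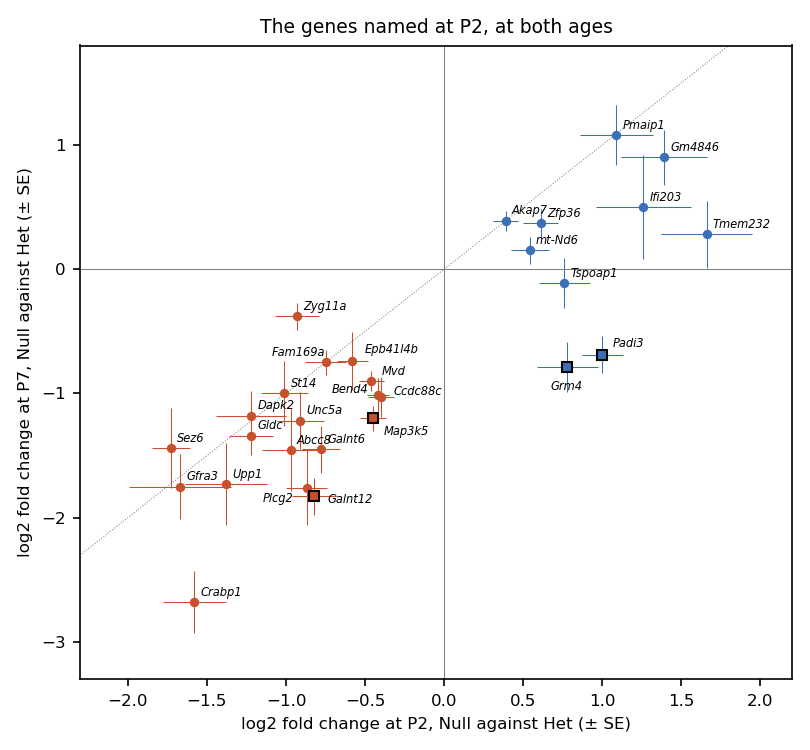
Log2 fold change of Null against Het at P2 (horizontal) and P7 (vertical) with SE, for 19 of the 20 lower (red) and the 10 higher (blue) genes. Squares with a black edge are the 4 genes whose effects at the ages differed in the edgeR interaction test, which the P2 values that chose the genes enter. The dotted line marks equal effects. The 19 lower genes shown lie below 0 at both ages, and Padi3 and Grm4 lie above 0 at P2 and below 0 at P7.

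The effects at the ages differed by a test of the difference itself for 90 of 17494 genes (0.514%), among them 4 of the 30, namely Galnt12, Map3k5, Padi3 and Grm4. The P2 values that chose the 30 genes enter this test, so the 4 are a description and are not read against the share of all genes. Levels in Het on a scale common to all 12 samples are given side by side and without a test. How many of all genes rose or fell with age in Het was not counted, so the counts describe these 20 genes only. For 16 of the 20 lower genes the Het mean was higher at P7 than at P2, as for Crabp1 (5.58 ± 0.323 CPM at P2 and 38.1 ± 5.1 CPM at P7), Upp1 (1.75 ± 0.222 and 10.8 ± 2.89) and Gfra3 (1.26 ± 0.172 and 4.07 ± 0.275) (SD, n = 3). For 4 all P7 Het samples lay below all P2 Het samples, as for Sez6 (26.8 ± 3.32 and 7.47 ± 0.447) and St14 (10.6 ± 0.244 and 3.9 ± 0.617).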

How the data were processed

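RNA from whole testes was sequenced from Pramef12 Het and Null mice, 3 samples per genotype at P2 and at P7. Per the labels and the study's methods, the authors prepared Nextera libraries from polyA RNA, trimmed reads with cutadapt (version 1.16), aligned them to mm10 with HISAT2 (2.1.0) and counted them per gene with featureCounts (1.6.1), without strand, on GENCODE annotation. The authors deposited whole-number counts per gene, not normalized, for 49585 genes per sample. Symbols of 49326 of these were found by identifier, and 259 identifiers stayed without one.

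Counts were fitted in R 4.3.3 with edgeR 4.0.16 (filterByExpr, minimum count 10, TMM, glmQLFit and glmQLFTest, two-sided), each age alone. Same-numbered P7 samples correlated at 0.1263, 0.1824 and 0.3571 in their deviations from the group means. The main P7 fit leaves this out, and a replicate block was an alternative. Any pairing is seen in the data and not given by the labels. The interaction of age and genotype was fitted over all 12 samples. SE were derived from each fold change and its F statistic. DESeq2 1.42.0 was an alternative, as were other scalings, no filter, a replicate block and each sample left out. Named genes were Pramef12, the 20 lower and 10 higher genes of smallest p, up to 3 members of smallest p and every called member of each textbook list, and the cell type markers. Marker lists came from the study's single-cell supplementary data (markers of 1 cluster, detected in at most 20% of other cells, ln fold at least 0.5). The genes and lists were chosen with earlier results of these data known. The values of 1 of the 20 lower genes are not reported here, while counts over the 20 include it. The script was tested on simulated data. Pairs of samples of a group differed by a chi-square per degree of freedom of 5.69 to 11.4, so each was counted as a sample of its own. Sequence sharing and exon overlap were read from GENCODE M21 (GRCm38). Total counts of 14438781 to 21043245 give a gene near 1 CPM few reads per sample, which limits its precision. Single-cell data were not used here beyond the marker lists.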

Additional observations from a re-analysis of the deposited data

Results flagged for a closer look

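For 4 of the 30 genes named at P2 the effect of genotype differed between the ages by the edgeR interaction test over all 12 samples, against 90 of 17494 genes tested. The P2 values that chose these genes enter this test. Padi3 was at 1.00 at P2 and -0.69 at P7, a difference of -1.69 (adjusted p = 0.0312). Grm4 was at 0.78 and -0.79, a difference of -1.57 (adjusted p = 0.0639). Galnt12 was at -0.82 and -1.83, a difference of -1.02 (adjusted p = 0.0697), and Map3k5 at -0.45 and -1.20, a difference of -0.75 (adjusted p = 0.0571). The number of the 30 genes so called was 0 without P7 Het replicate 4 or 5, 1 without P2 Het replicate 1 or 3 or P7 Null replicate 5 or 6, 2 without P2 Het replicate 2 or P2 Null replicate 1, and 8 without P7 Null replicate 4.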

How the results depend on the processing

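No alternative turned the direction of any of 30 genes (390 values, of which 285 kept their side of the threshold, 87 moved past it and 18 no longer passed). Of the 87, 26 came from the fit without the filter on low counts, which also lowered the SE of some genes that pass the filter. Hbb-bs was called in it (SE 0.17 in place of 0.43, adjusted p = 0.000206, edgeR), although its main-fit difference was 0.09 without Null replicate 1. The count of genes lower and higher in P2 Null, 6 and 1, was 62 and 14 with DESeq2, 73 and 11 with DESeq2 on all 12 samples, 165 and 60 without the filter on low counts, and 15 and 1 on library sizes set on Sertoli markers. It was 1 to 4 lower and 0 to 1 higher with 1 sample left out, namely 1 lower without Het replicate 1 or 2, 4 without Null replicate 1 and 3 without any other P2 sample. Of the genes called with all samples, 1 (Sez6) was also called without Het replicate 1 or 2 or Null replicate 3, 2 without Het replicate 3 and 3 without Null replicate 1 or 2, and 0 to 3 other genes were called in these fits. The cause was not tested. With a replicate block it was 30 and 3, and 7 in place of 4 named genes had an interaction. The numbers did not pair the P2 samples by the criterion that every pair correlate above 0.1, since same-numbered samples correlated at 0.1192, 0.09818 and 0.3318 and Het 1 correlated better with Null 2 (0.1758). The P7 samples met it, although Het 5 correlated slightly better with Null 4 (0.1902) than with Null 5 (0.1824). The block changed neither count of the P2 genes called at P7 (19 lower and 4 higher). The interaction count was 8 with DESeq2 and 0 to 8 with 1 sample left out. The median of spermatogonia markers was -0.24 on Sertoli scaling, -0.45 for the pair of SPG1 genes and -0.18 to -0.09 with 1 sample left out, and that of Sertoli markers -0.02 on Sertoli scaling and 0.02 to 0.10 with 1 left out. The SPG1 list changed from 0.06 to -0.02 on Sertoli scaling, and skeletal muscle from -0.20 to 0.08 without Het replicate 1 (-0.29 to 0.08 over the samples left out). Of 224 values for 32 other list medians, 39 moved by more than the SD between replicates. Genes higher at both ages numbered 2 in place of 4 on Sertoli scaling, and those lower at both ages 16 to 19 with a P7 sample left out. Genes near 1 CPM, such as Upp1, Gfra3, Tmem232 and Gm4846, rest on few reads.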

Other observations

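Genes of cholesterol synthesis and its control were listed after Mvd had been seen among the lower genes, so the list describes these samples only. Of its 23 genes, all tested, 21 had a difference below 0 at P2, and the median was -0.16. None of them was called by edgeR and 1 was called by DESeq2. Of all genes tested, 3.81% were lower and 2.23% higher at an unadjusted p below 0.05 in edgeR. Of the list, 8 (34.8%) were lower and 0 higher. Besides Mvd (-0.46) these included Lss (-0.30), Fdft1 (-0.26) and Sqle (-0.25), which form squalene and turn it into lanosterol, with adjusted p from 0.459 to 0.704. Sqle was at 83.9, 94.2 and 88.8 CPM in Het and 71.3, 76.5 and 76.4 CPM in Null. The summed level of the 23 genes was 1469, 1674 and 1467 CPM in Het and 1345, 1423 and 1339 CPM in Null, without overlap. These genes are active in many cells, Leydig cells among them. In the same samples textbook Leydig cell genes had a median of -0.05 and single-cell Leydig markers one of 0.04. The part of any cell type in the cholesterol values was not tested. At P7 the median of the list was -0.23, with 9 genes called lower and 0 higher.

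Protein genes of the mitochondrial DNA, also listed after their values were seen, had a median of 0.28 over 12 tested of 13, with 0 below 0 and 7 higher at an unadjusted p below 0.05, none called by edgeR and 5 called by DESeq2. Their summed level was 7181, 6881 and 7658 CPM in Het and 9214, 8518 and 8886 CPM in Null, without overlap. At P7 the median was 0.20 with none called.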
